A study of Homo sapiens with 2 samples.

Results

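A set of 8 genes of GABA synthesis and of interneuron subtypes were described here across 2 single-cell RNA libraries, matched by gene symbol: GAD1, GAD2, SLC32A1, CALB2, SCGN, NPY, SST and CALB1. All 8 were found among the 36601 genes of the count tables. They were chosen with earlier values of these data known, so their levels are a description and no test is attached to them. Both libraries came from astrocyte progenitors made from H7, an established human embryonic stem cell line, with LIF, BMP4 and FGF1. They are labelled day 220 and day 160. Each pooled 3 separate differentiations that the counts cannot tell apart, so each day is 1 sample. The preparation text of the day 220 library gives the same 160 days in vitro as that of the other, and time cannot be told apart from any other difference between the cultures.

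GABA is the main inhibitory transmitter of the adult brain. A pair of glutamate decarboxylases makes it from glutamate: the GAD1 enzyme is spread through the cell and supplies most of its GABA, and the GAD2 enzyme sits mainly at nerve endings. SLC32A1 encodes the transporter that loads GABA into synaptic vesicles. Forebrain interneurons arise in the ganglionic eminences, where DLX factors drive their programme. They are sorted into subtypes by the calcium-binding proteins calretinin (CALB2), secretagogin (SCGN) and calbindin (CALB1) and by the peptides neuropeptide Y (NPY) and somatostatin (SST).

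Of the 8 genes, 6 had a promoter entry in RefSeq (GRCh38.p14), and 3 of these windows are shown because the results turn on these genes: the GABA enzyme genes, whose levels parted between the days, and SST, which was close to absent at day 220. Each window runs from 250 bases before to 50 bases after a transcript start, 5′ to 3′ on the gene's strand. GAD1 is on chromosome 2 (chr2:170816637-170816936, plus strand), GAD2 on chromosome 10 (chr10:26216122-26216421, plus strand) and SST on chromosome 3 (chr3:187670345-187670644, minus strand). Capitals mark the E-box CAGCTG in GAD2 and the cAMP response element TGACGTCA in SST.
GAD1: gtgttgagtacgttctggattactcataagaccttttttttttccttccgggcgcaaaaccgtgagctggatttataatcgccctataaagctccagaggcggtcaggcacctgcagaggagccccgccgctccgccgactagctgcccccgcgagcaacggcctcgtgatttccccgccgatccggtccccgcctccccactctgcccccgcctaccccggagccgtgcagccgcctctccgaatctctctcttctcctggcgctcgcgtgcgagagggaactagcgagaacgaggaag
GAD2: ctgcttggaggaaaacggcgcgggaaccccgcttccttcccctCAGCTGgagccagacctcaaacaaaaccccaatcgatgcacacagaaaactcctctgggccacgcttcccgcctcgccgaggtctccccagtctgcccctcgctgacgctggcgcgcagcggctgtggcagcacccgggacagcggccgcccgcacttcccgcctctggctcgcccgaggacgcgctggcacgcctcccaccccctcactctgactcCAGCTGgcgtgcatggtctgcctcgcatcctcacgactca
SST: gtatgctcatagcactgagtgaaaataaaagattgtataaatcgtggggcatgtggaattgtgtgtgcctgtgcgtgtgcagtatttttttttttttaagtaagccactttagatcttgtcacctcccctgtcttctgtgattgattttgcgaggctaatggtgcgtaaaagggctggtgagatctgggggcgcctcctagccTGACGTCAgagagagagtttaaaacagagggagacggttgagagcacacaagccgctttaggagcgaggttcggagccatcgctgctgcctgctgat
A total of 3 short motifs were searched on both strands, and no match of one overlapped a match of another. TAATT, the core of homeodomain sites such as those of the DLX proteins, was in none of the windows of the 6 genes and in 24.8% of all 35116 windows. CAGCTG was found at bases 44 and 261 of the GAD2 window shown and in 17.9% of all windows. A further GAD2 window, not shown, held no match. TGACGTCA was found once, 47 bases upstream of the SST start, and in 1.85% of all windows. These matches are letters in a window and say nothing of binding.

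Barcodes with at least 1000 genes and at most 15% mitochondrial UMIs (unique molecular identifiers, each counting 1 captured RNA molecule) numbered 524 at day 220 and 9972 at day 160. Barcodes marked as doublets (6 at day 220 and 583 at day 160) were left out, which kept 518 cells at day 220 and 9389 at day 160. The day 220 cells were the deeper, with a median of 46080 UMIs a cell, against 10041 at day 160. Shares of cells are therefore given after every cell was thinned to 5000 UMIs, in 488 cells at day 220 and 8699 at day 160, with the unthinned share beside them. Levels are CPM, the UMIs of a gene scaled to a common library total, over all kept cells of a library. All intervals cover counting error only, not the spread between cultures. All 14 astrocyte markers listed were found in both libraries, summing to 3384 CPM at day 220 and 3872 CPM at day 160. The 9 oligodendrocyte-lineage markers summed to 737 CPM at day 220 and 375 CPM at day 160, and the 10 cycling markers to 319 CPM at day 220 and 1350 CPM at day 160. Of 8 microglial markers, 5 had 0 UMIs in each library. The part of these in the results below was not tested. Only 3 barcode sequences occurred in both libraries.

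Over the whole libraries, the GABA genes and the subtype genes did not move together. GAD1 and SLC32A1 were at least 2-fold higher at day 220, CALB2, SCGN and SST were at least 2-fold lower, and GAD2, NPY and CALB1 lay between. All 8 genes reached 10 CPM in at least 1 library. Among all 10167 genes that did, 23.0% were 2-fold or more higher at day 220 and 5.09% were 2-fold or more lower, so a higher gene was common and a lower one was not. The counts of 2 and 3 of 8 describe genes chosen with these values known.

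**Figure D1:**
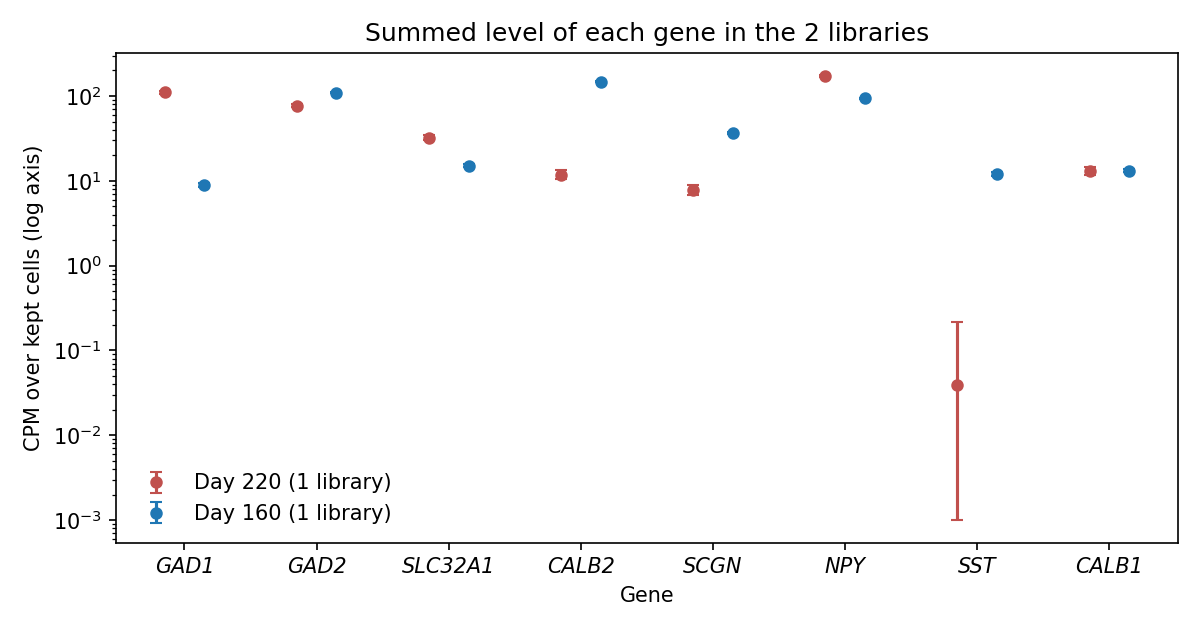
Level of each of the 8 genes (CPM over kept cells, log axis) in the day 220 library (red, left of each pair) and the day 160 library (blue), with exact Poisson intervals (95%). GAD1 lay at 111 CPM at day 220 and 8.99 CPM at day 160, and SST at day 220 rested on 1 UMI.

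GAD1 (chromosome 2, 170813213 to 170861151, plus strand, GRCh38) had 2824 UMIs at day 220, or 111 CPM (107 to 115), against 1035 UMIs at day 160, or 8.99 CPM (8.45 to 9.55). The ratio was 12.3 (11.5 to 13.3). No cell at day 160 held more than 5 GAD1 UMIs, whereas 1 cell at day 220 held 70. GAD1 was found in 36.9% of thinned cells at day 220 (180 of 488; 32.6 to 41.3) and in 5.49% at day 160 (478 of 8699; 5.03 to 5.99). Without thinning the share was 66.0% at day 220 and 8.91% at day 160. The antisense gene AC007405.2 overlaps GAD1 and was counted on its own, with 54 UMIs at day 220 and 160 UMIs at day 160.

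GAD2 (chromosome 10, 26216307 to 26304558, plus strand) went the other way. It stood at 76.8 CPM at day 220 (73.4 to 80.3; 1957 UMIs) and at 110 CPM at day 160 (108 to 112; 12654 UMIs), a ratio of 0.699 (0.666 to 0.733), or 1.43-fold lower. Its share of thinned cells was 18.6% at day 220 and 28.8% at day 160 (unthinned, 31.5% at day 220 and 35.8% at day 160). When each gene's ratio was centred on genes of like intron length, the log2 ratio of GAD2 moved to -1.06, against -0.51 uncentred, while that of GAD1 was 3.39, against 3.48.

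SLC32A1 (chromosome 20, 38724462 to 38729372, plus strand) had 32.3 CPM at day 220 (30.2 to 34.6) and 15.2 CPM at day 160 (14.5 to 15.9), a ratio of 2.13 (1.96 to 2.32). Thinned cells held it in 16.0% at day 220 and 8.91% at day 160 (unthinned, 37.5% at day 220 and 13.5% at day 160). Its log2 ratio of 1.04 ranged from 0.80 to 1.48 over the alternatives, so its place past 2-fold depended on the processing. The 3 genes thus gave 3 different ratios: GAD1 was much higher, the vesicular transporter about 2-fold higher and GAD2 lower at day 220.

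CALB2 (chromosome 16, 71358713 to 71390438, plus strand) had 11.8 CPM at day 220 (10.6 to 13.3) and 148 CPM at day 160 (146 to 150), or 12.5-fold lower (11.1 to 14.0). SCGN (chromosome 6, 25652201 to 25701783, plus strand) had 7.81 CPM at day 220 (6.76 to 8.97) and 36.8 CPM at day 160 (35.7 to 38.0), or 4.72-fold lower (4.09 to 5.47). CALB2 was found in 4.71% of thinned cells at day 220 (23 of 488), against 1307 of 8699 at day 160 (unthinned, 8.30% at day 220 and 20.1% at day 160). SCGN was found in 3.48% of thinned cells at day 220 and 7.16% at day 160 (unthinned, 5.79% at day 220 and 10.6% at day 160). Few day 220 cells carried most of either gene: the 10 highest of 518 held 67.2% of the CALB2 UMIs and 72.4% of the SCGN UMIs there.

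SST (chromosome 3, 187668906 to 187670399, minus strand) had 1 UMI at day 220, against 1372 UMIs at day 160 (11.9 CPM; 11.3 to 12.6). The ratio was 0.00329 (8.33e-05 to 0.0184). None of 488 thinned day 220 cells held it, which by a limit of 3 counts allows up to 0.615% of cells with an SST UMI, and 105 of 8699 did at day 160 (1.21%). Unthinned, the shares were 0.193% at day 220 and 1.45% at day 160. The day 160 level rested on few cells, as the 10 highest of 9389 held 46.8% of its UMIs and 1 cell held 138.

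NPY (chromosome 7, 24284163 to 24291865, plus strand) had 171 CPM at day 220 (166 to 176) and 93.9 CPM at day 160 (92.2 to 95.7), a ratio of 1.82 (1.75 to 1.88). Its shares of thinned cells lay close together, at 26.2% (22.4 to 30.4) at day 220 and 23.2% (22.3 to 24.1) at day 160, and unthinned at 43.8% at day 220 and 29.5% at day 160. A day 220 cell held 258 NPY UMIs, against at most 91 in a day 160 cell. Centred on intron length its log2 ratio was 1.18, past 2-fold, against 0.85 uncentred.

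CALB1 (chromosome 8, 90058608 to 90095475, minus strand) stood at 13.1 CPM at day 220 (11.7 to 14.6) and 13.2 CPM at day 160 (12.6 to 13.9), a ratio of 0.991 (0.878 to 1.12). It was found in 2.87% of thinned cells at day 220 and 1.95% at day 160 (unthinned, 11.8% at day 220 and 3.77% at day 160). With every cell given equal weight in place of every UMI, its log2 ratio was 1.27, against -0.01.

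Each library was clustered on its own with the 8 genes left out, giving 7 clusters at day 220 and 11 at day 160, named here by their leading genes. At day 220 GAD1 was found in 15.6% to 74.3% of the thinned cells of each cluster, while each of the other 7 genes was at 0 in at least 1 cluster. These zeros depend on the thinning. Without it only SCGN and SST had 0 UMIs in any day 220 cluster. Unthinned, NPY was found in 16.0% to 77.1% of the cells of each cluster, and GAD1 in 41.6% to 84.2%. At day 160 GAD1 followed the clusters that held GAD2.

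**Figure D2:**
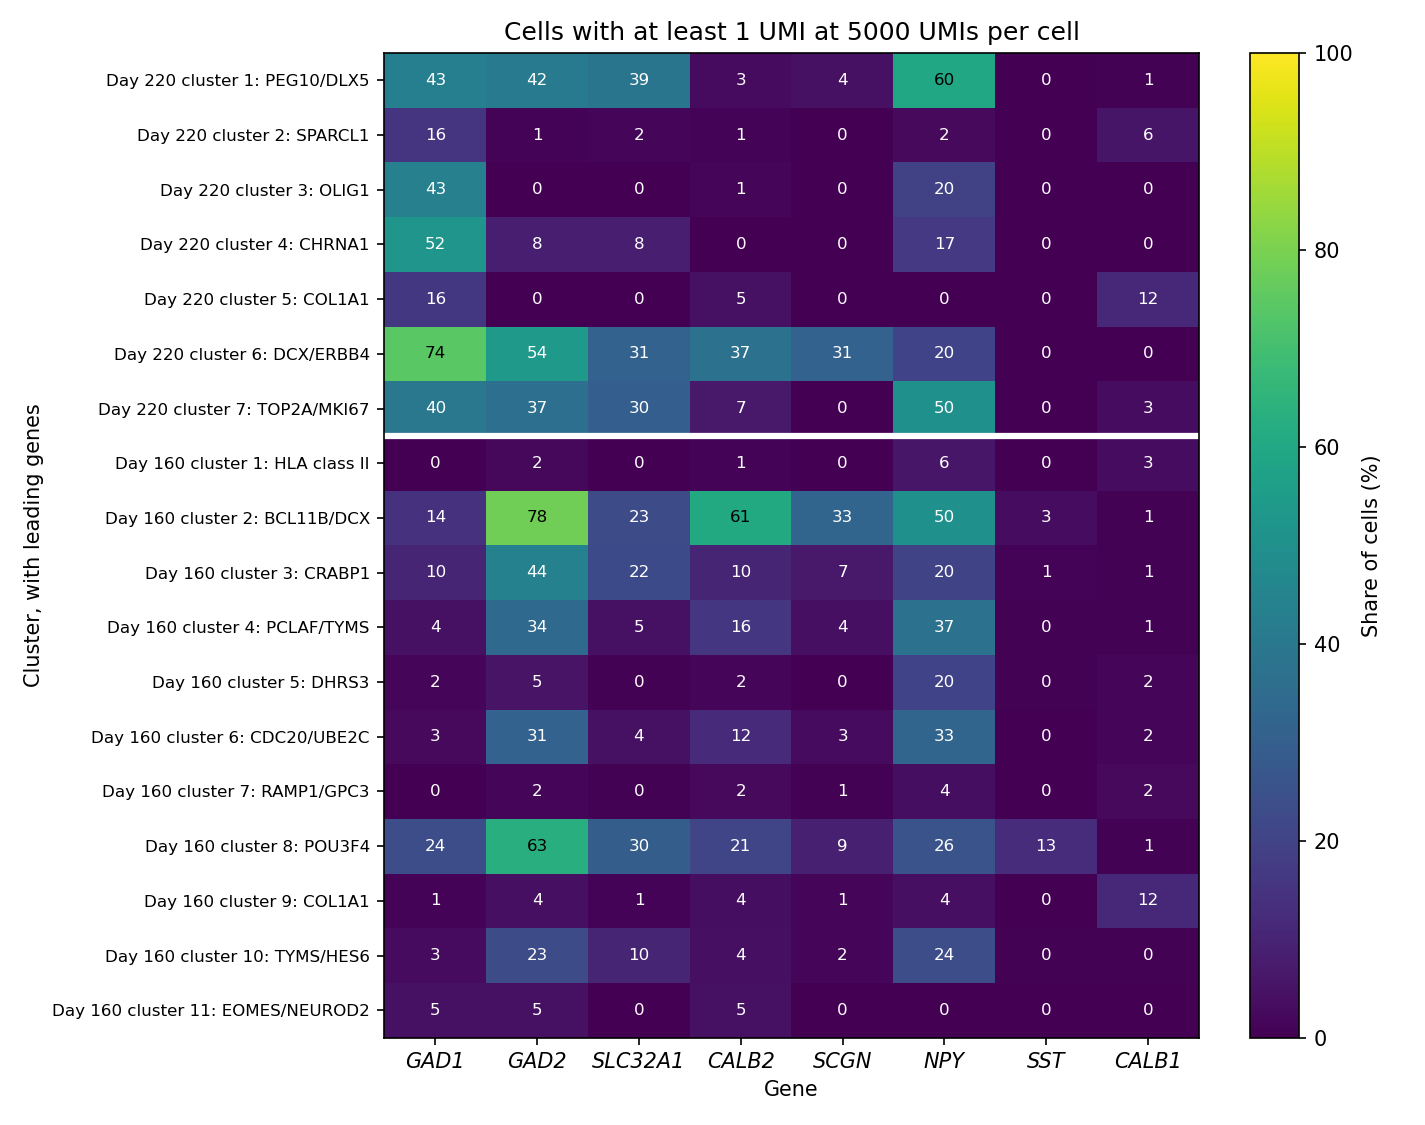
Share of cells (%) with at least 1 UMI of each gene after thinning to 5000 UMIs, by cluster, with day 220 clusters above the white line and day 160 clusters below it. GAD1 spanned all day 220 clusters, from 15.6% to 74.3%, whereas GAD2 was at 0 at this depth in the OLIG1 and COL1A1 clusters. Without thinning GAD2 was found in 4 of 78 and 5 of 44 of their cells.

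The day 220 cluster led by PEG10, DLX6-AS1 and DLX5 (cluster 1, 140 cells) had the full GABA set. It held GAD1 at 156 CPM (146 to 167), GAD2 at 221 CPM (208 to 234) and SLC32A1 at 107 CPM (98.7 to 117). NPY was highest there at 588 CPM (567 to 609) and was found in 59.7% of its thinned cells. The cycling cluster led by TOP2A and MKI67 (33 cells) looked alike on a lower GAD1 level, with 88.6 CPM GAD1, 216 CPM GAD2, 69.2 CPM SLC32A1 and 317 CPM NPY. In the cycling cluster 90.0% of the GAD2 UMIs and 88.8% of the NPY UMIs lay in 10 of the 33 cells.

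The day 220 cluster led by BRINP1, ST18, ERBB4 and DCX (38 cells) had the highest GAD1 level, 284 CPM (248 to 323), with 225 CPM GAD2. It was also where CALB2 and SCGN lay, at 208 CPM (178 to 242) and 178 CPM (150 to 210). The other day 220 clusters held CALB2 at 0.283 to 13.0 CPM and SCGN at 0 to 9.94 CPM. These 38 cells carried 167 of the 302 CALB2 UMIs and 143 of the 199 SCGN UMIs of the day 220 library. Unthinned, 19 of the 38 held CALB2 and 17 held SCGN. The 10 highest cells for each gene held 85.6% of the cluster's CALB2 UMIs, 89.5% of its SCGN UMIs and 70.2% of its GAD1 UMIs.

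The day 220 cluster led by OLIG1, DPP6, SMOC1 and BCAN (78 cells) held GAD1 almost without the other GABA genes. Its GAD1 level of 155 CPM (142 to 168; 547 UMIs) was within counting error of the 156 CPM of the PEG10 and DLX5 cluster. GAD2 was at 9.91 CPM there (35 UMIs) and SLC32A1 at 2.83 CPM (10 UMIs), and a single cell held 31 of the 35 GAD2 UMIs. GAD1 was found in 60 of the 78 unthinned cells, with a median of 3 UMIs and a highest of 63, and GAD2 in 4 of 78. NPY was present at 89.7 CPM (80.1 to 100), with 78.9% of its UMIs in 10 cells.

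The cluster led by CHRNA1, GLCCI1 and GADD45G (60 cells) held GAD1 at 229 CPM (210 to 249). Its GAD2 and SLC32A1 levels lay between, at 61.4 CPM (51.6 to 72.5) and 20.8 CPM (15.3 to 27.6). Few cells carried this GAD2 level: 96.4% of the GAD2 UMIs lay in 10 cells, and 4 of 48 thinned cells held GAD2. GAD1 was lower in the SPARCL1 and EDNRB cluster (125 cells) at 53.7 CPM (48.7 to 59.1) and in the COL1A1 and TAGLN cluster (44 cells) at 33.1 CPM (27.7 to 39.3). The SPARCL1 value moved with the clustering: at the finer resolution of 1.0 the cluster of highest SPARCL1 had 38 cells, with 35.2 CPM GAD1 and 20.9 CPM GAD2. CALB1 was highest in these 2 clusters, at 29.9 CPM (26.2 to 34.0) and 18.8 CPM (14.8 to 23.6), and at most 2.29 CPM in the others.

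The COL1A1 cluster, led by contractile and matrix genes, serves as a comparison for GAD1 UMIs in cells not known for GABA synthesis. It held GAD1 in 16.3% of thinned cells (7 of 43; 6.81 to 30.7), with 18 UMIs in its highest cell and 87.9% of its GAD1 UMIs in 10 cells. The SPARCL1 cluster, at 15.6% (19 of 122; 9.64 to 23.2), was not above it by share but was by CPM, with 70 UMIs in its highest cell, so no order is read between these clusters. Whether RNA from outside the cells gave these UMIs was not tested. In this thinning the OLIG1 cluster, at 43.4% (33 of 76; 32.1 to 55.3), stood above the COL1A1 cluster, with intervals that part narrowly, at 32.1 and 30.7. Shares by cluster were not redrawn. The library share in this thinning, 36.9%, lay above those of all 20 further thinnings (31.4% to 36.7%). The PEG10 and DLX5 cluster stood at 43.3% (58 of 134), the CHRNA1 cluster at 52.1% (25 of 48) and the DCX cluster at 74.3% (26 of 35). Without thinning, GAD1 was found in 76.9% of OLIG1 cluster cells (median depth 44600 UMIs) and in 43.2% of COL1A1 cluster cells (median depth 87470 UMIs). Day 220 barcodes under the gene limit, which can show RNA outside cells, held 3 GAD1 and 10 GAD2 UMIs among 126854. These counts were 23.6 CPM GAD1 (4.88 to 69.1) and 78.8 CPM GAD2 (37.8 to 145).

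The ratio of GAD1 to GAD2 UMIs differed between clusters of 1 library. UMIs of different genes need not count molecules with equal yield, so the ratio is compared only between clusters. It was 0.410 (0.339 to 0.494) in the cycling cluster, 0.708 (0.646 to 0.775) in the PEG10 and DLX5 cluster and 1.26 (1.03 to 1.54) in the DCX cluster. In the CHRNA1 cluster it was 3.73 (3.08 to 4.53), in the SPARCL1 cluster 7.96 (5.97 to 10.8), in the OLIG1 cluster 15.6 (11.1 to 22.7) and in the COL1A1 cluster 26.4 (11.0 to 82.6). The last 3 values rest on few GAD2 UMIs: 1 cell held 48 of the 53 in the SPARCL1 cluster and 1 cell 31 of the 35 in the OLIG1 cluster. The COL1A1 cluster had 5 in all. No order is read among the 3. In the CHRNA1 cluster 1 cell held 59 of the 139 GAD2 UMIs. At day 160 all 11 clusters lay between 0.0387 and 0.254, with 0.0818 (0.0767 to 0.0872) over the library, against 1.44 (1.36 to 1.53) over the day 220 library. The lowest day 220 value, 0.410, lay above the highest day 160 value, 0.254 (0.182 to 0.348), with intervals that overlap.

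**Figure D3:**
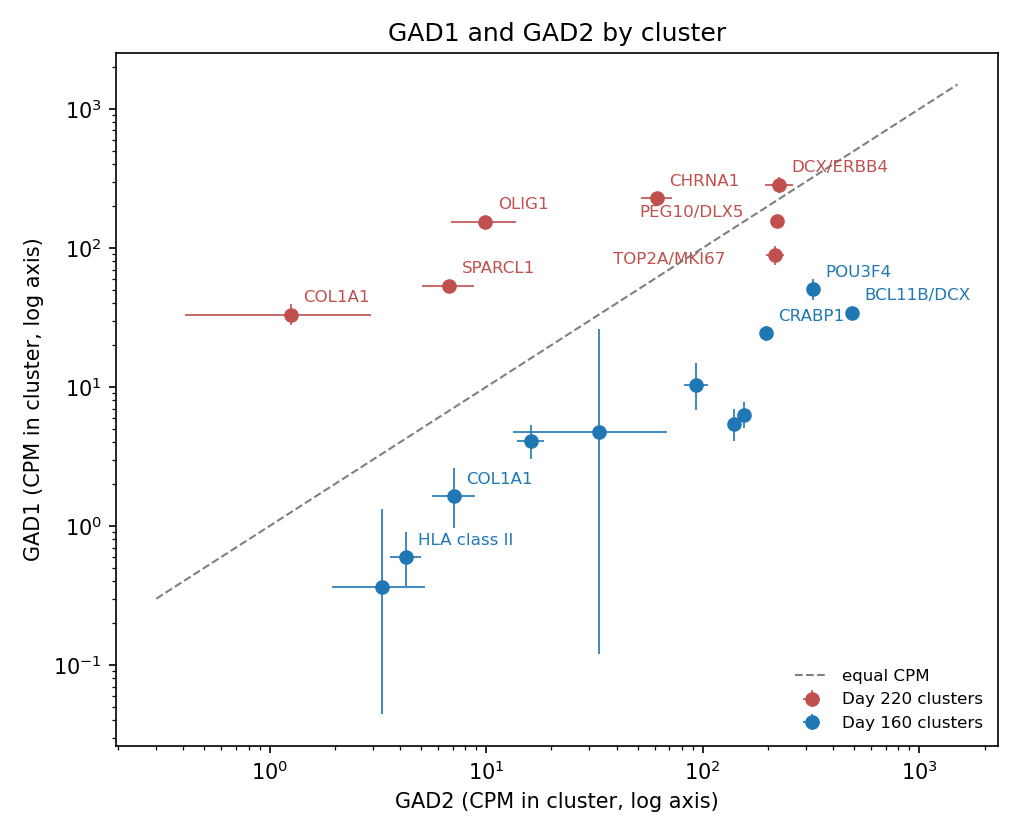
GAD1 level against GAD2 level (CPM, both axes log) in each cluster of the day 220 library (red) and the day 160 library (blue), with exact Poisson intervals (95%). The dashed line marks equal CPM. Day 160 clusters lay along 1 band below the line, while the day 220 OLIG1, SPARCL1 and COL1A1 clusters held GAD1 at 155, 53.7 and 33.1 CPM with GAD2 under 10 CPM.

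At day 160, 6 of the 8 genes had most of their UMIs in 3 clusters, those led by BCL11B, CRABP1 and POU3F4. NPY was spread more widely, with 34.5% of its UMIs in the BCL11B cluster, 22.0% in a cluster led by PCLAF and TYMS and 14.2% in one led by CDC20 and UBE2C. CALB1 lay elsewhere, with 761 of its 1523 UMIs in the HLA-DPA1 cluster and 29.3% in the COL1A1 cluster. The cluster led by BCL11B, DCX, DLX5 and SP9 (1744 cells) held GAD2 at 488 CPM (476 to 501), CALB2 at 1140 CPM (1121 to 1160), SCGN at 304 CPM (294 to 314) and NPY at 329 CPM (318 to 339). It carried 76.0% of all CALB2 UMIs and 81.3% of all SCGN UMIs of the library. Its CALB2 level moved with the clustering: the cluster of highest DCX had 2113 CPM at a resolution of 1.0 (835 cells) and 2279 CPM with the members allowed among the clustering genes (692 cells). GAD1 was at 34.2 CPM (30.9 to 37.8) there and was found in 14.4% of its thinned cells. The cluster led by CRABP1 and HOXB6 (1239 cells) held GAD2 at 195 CPM and GAD1 at 24.3 CPM.

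The day 160 cluster led by POU3F4, FABP5, NSG1 and SYT1 (349 cells) had the highest GAD1 level of that day, 50.5 CPM (42.4 to 59.6), and held SST at 247 CPM (229 to 267). It carried 49.0% of the SST UMIs, and 12.6% of its thinned cells held SST. Even so, 75.1% of its SST UMIs lay in 10 cells. For comparison, the COL1A1 cluster of that day (272 cells) held GAD1 in 0.837% of thinned cells, GAD2 in 4.18% and CALB2 in 3.77%, with 0 UMIs of SST. The cluster led by HLA-DPA1 and HLA-DRA (2240 cells) held GAD1 in 0.226%, GAD2 in 2.17% and CALB2 in 0.812%. CALB1 was highest in that COL1A1 cluster, at 40.6 CPM (37.0 to 44.6).

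Most day 160 cells with CALB2, SCGN or SST also held GAD2. Of thinned cells with SCGN, 514 of 623 (82.5%) also held CALB2, and 466 (74.8%) held GAD2. Of cells with CALB2, 990 of 1307 (75.7%) held GAD2 and 161 (12.3%) held GAD1. Cells with SST held GAD2 in 60 of 105 (57.1%). Cells with CALB1 held GAD2 in 23 of 170 (13.5%) only. For comparison, GAD2 was found in 25.2% of day 160 cells without SCGN, 20.5% without CALB2, 28.4% without SST and 29.1% without CALB1. CALB2 was found in 9.82% of day 160 cells without SCGN, and GAD1 in 4.29% of those without CALB2. At day 220, 6 of 17 cells with SCGN held CALB2, and 12 of 23 cells with CALB2 held GAD2. Day 220 cells without SCGN held CALB2 in 3.61%, and those without CALB2 held GAD2 in 17.0%. Of GAD1 cells, 25.0% held GAD2 at day 220 (45 of 180; 18.9 to 32.0), against 60.9% at day 160 (291 of 478; 56.3 to 65.3). Cells without GAD1 held GAD2 in 14.9% at day 220 and 26.9% at day 160.

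Which cells held GAD1 without neuronal genes was read from 10 neuron core genes (STMN2, ELAVL3, ELAVL4, SNAP25, SYT4, INA, STMN4, MYT1L, NSG2 and RBFOX3) and 9 interneuron precursor genes, which include DLX1, DLX2, DLX5, DLX6, DLX6-AS1, SP8 and SP9. These lists moved with the day: the core genes summed to 86.5 CPM at day 220 and 173 CPM at day 160, and the precursor genes to 657 CPM at day 220 and 2081 CPM at day 160. STMN2, a marker of young neurons, had 1 UMI at day 220 and 11.9 CPM at day 160. ELAVL4, an RNA-binding protein of neurons, had 0.785 CPM at day 220 and 37.8 CPM at day 160, and SYT4 had 0 UMIs at day 220. STMN4 and INA made up most of the day 220 sum, at 47.0 and 21.7 CPM. The part of these differences in the shares below was not tested.

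At day 220, 108 of 180 GAD1 cells held no core gene, or 60.0% (52.4 to 67.2), beside 202 of 308 cells without GAD1, or 65.6% (60.0 to 70.9). These intervals overlap, so no difference is read at day 220, which does not show that there was none. Within day 220 clusters the gap went both ways, as given below for the PEG10 and DLX5 cluster and the CHRNA1 cluster. At day 160, 107 of 478 GAD1 cells held none, or 22.4% (18.7 to 26.4), beside 4442 of 8221 cells without GAD1, or 54.0% (52.9 to 55.1). In 20 further thinnings the mean share was 60.4% at day 220 and 25.0% at day 160. The shares moved with depth and list: unthinned they were 14.3% at day 220 and 16.4% at day 160, and without STMN4 and INA 87.8% at day 220 and 41.4% at day 160. A broad list of 16 genes that adds TUBB3, DCX, GAP43, SYT1, MAP2 and RTN1 left no GAD1 cell without a gene, at day 220 (0 of 180) or day 160 (0 of 478). It left almost no cell at all, with 2 of 308 cells without GAD1 at day 220 and 35 of 8221 at day 160.

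A stricter class held GAD1 with no core gene, no interneuron precursor gene, no GAD2 and no SLC32A1. It comprised 35 of 180 GAD1 cells at day 220, or 19.4% (13.9 to 26.0), and 4 of 478 at day 160, or 0.837% (0.228 to 2.13). Among cells without GAD1 the same emptiness was found in 89 of 308 at day 220 (28.9%) and 812 of 8221 at day 160 (9.88%). Of the 35 cells, 18 lay in the OLIG1 cluster, 10 in the SPARCL1 cluster, 5 in the COL1A1 cluster and 2 in the CHRNA1 cluster, and none in the other 3. These were 18 of 33, 10 of 19, 5 of 7 and 2 of 25 GAD1 cells of these clusters. Cells without GAD1 gave 21 of 43, 41 of 103, 23 of 36 and 3 of 23, so the class followed the clusters with or without GAD1. OLIG1 itself was found in 15 of the 35, with 10 of the 15 in the OLIG1 cluster, beside 23.3% of all day 220 GAD1 cells.

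What else the GAD1 cells held differed by cluster at day 220. In the PEG10 and DLX5 cluster 35 of 58 GAD1 cells and 35 of 76 cells without GAD1 held no core gene, and 2 of 58 GAD1 cells and 1 of 76 cells without GAD1 lacked every precursor gene. In the CHRNA1 cluster 10 of 25 GAD1 cells held no core gene, beside 18 of 23 cells without GAD1. Neither GAD2 nor SLC32A1 was found in 18 of 19 GAD1 cells of the SPARCL1 cluster, 7 of 7 of the COL1A1 cluster and 21 of 25 of the CHRNA1 cluster. In the OLIG1 cluster 28 of 33 GAD1 cells held no core gene, 21 of 33 no precursor gene and 33 of 33 neither GAD2 nor SLC32A1. Cells of that cluster without GAD1 gave like counts, with 35 of 43 lacking core genes and 27 of 43 lacking precursor genes. None of the 76 thinned cells of the OLIG1 cluster, with or without GAD1, held GAD2 or SLC32A1. Its GAD1 cells held BCAN, a brain proteoglycan, in 31 of 33, beside 35 of 43 cells without GAD1. S100B, found in astrocytes among other cells, was in 24 of 33 GAD1 cells and 39 of 43 cells without GAD1. Of the other oligodendrocyte-lineage markers, OLIG2 was found in 2 of 33 GAD1 cells and 7 of 43 cells without GAD1. SOX10, NKX2-2, CSPG4 and PCDH15 were at 0 in both. PDGFRA was in 20 of 33 GAD1 cells and 28 of 43 cells without GAD1, close to its share over the library, 62.2% of GAD1 cells and 54.2% of cells without GAD1.

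**Figure D4:**
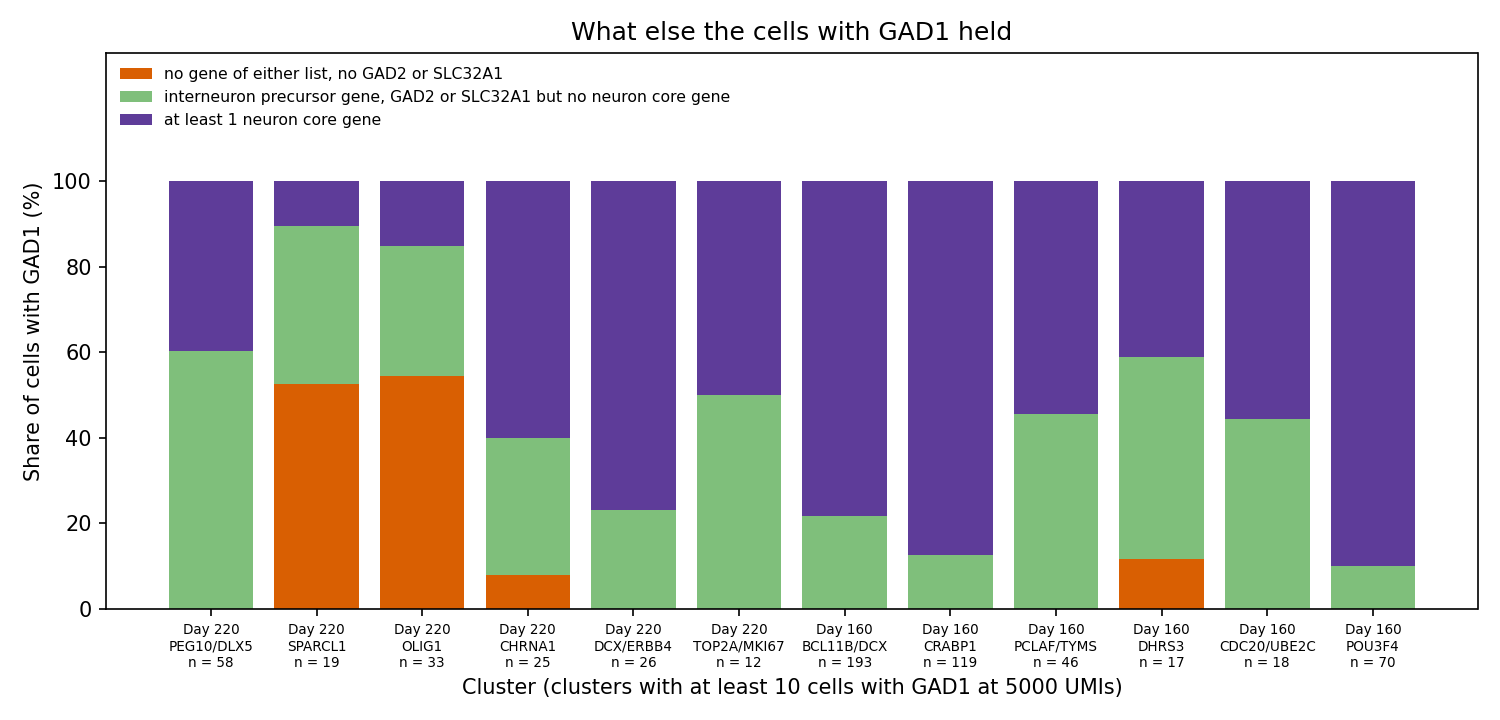
Share (%) of thinned cells with GAD1 that held at least 1 neuron core gene (purple), no core gene but an interneuron precursor gene, GAD2 or SLC32A1 (green), or none of these (orange), in clusters with at least 10 such cells, day 220 clusters on the left and day 160 clusters on the right. The orange class was 18 of 33 cells in the OLIG1 cluster and 0 of 58 in the PEG10 and DLX5 cluster. Cells without GAD1, not drawn, gave like counts, at 21 of 43 in the OLIG1 cluster and 0 of 76 in the other. The orange class lacks DLX5 and DLX6-AS1, which lead the PEG10 and DLX5 cluster, so its 0 there was all but set by definition.

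Over the whole day 220 library, DLX5 was found in 43.3% of GAD1 cells (36.0 to 50.9) and in 27.3% of cells without GAD1 (22.4 to 32.6). DCX, of migrating neurons, was found in 51.7% of GAD1 cells and 25.3% of cells without GAD1, and the astrocyte gene GFAP in 19.4% of GAD1 cells and 34.1% of cells without GAD1. Neither the broad neuronal list nor the astrocyte list moved as 1 group. GAP43 was found in 47.2% of GAD1 cells and 58.4% of cells without GAD1, and RTN1 in 47.8% and 55.5%. The astrocyte gene GJA1 was found in 55.6% of GAD1 cells and 52.9% of cells without GAD1. The intervals of GAP43, RTN1 and GJA1 overlapped. OLIG1 was at 23.3% in GAD1 cells and 23.4% in cells without GAD1.

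Of GAD1 cells, 44 of 180 at day 220 (24.4%) and 5 of 478 at day 160 (1.05%) held no interneuron precursor gene. Cells without GAD1 lacked these genes more often, in 125 of 308 at day 220 (40.6%) and 1222 of 8221 at day 160 (14.9%). The day 160 GAD1 cells also stood apart in single genes. DLX5 was found in 90.6% of those GAD1 cells, against 41.0% of cells without GAD1. SP9, a factor of interneuron precursors, was found in 80.8% of GAD1 cells and 33.9% of cells without GAD1, and ELAVL4 in 45.6% of GAD1 cells and 15.7% of cells without GAD1. GAP43, of the broad neuronal list, went the other way, at 46.4% of GAD1 cells and 57.7% of cells without GAD1. Astrocyte markers did not move as 1 group: GFAP was found in 17.8% of GAD1 cells and 50.7% of cells without GAD1, but GJA1 in 53.8% of GAD1 cells (49.2 to 58.3) and 38.6% of cells without GAD1 (37.5 to 39.6). The intervals of SLC1A2 and ALDH1L1 overlapped. Whether these gaps differ between the days was not tested.

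**Figure D5:**
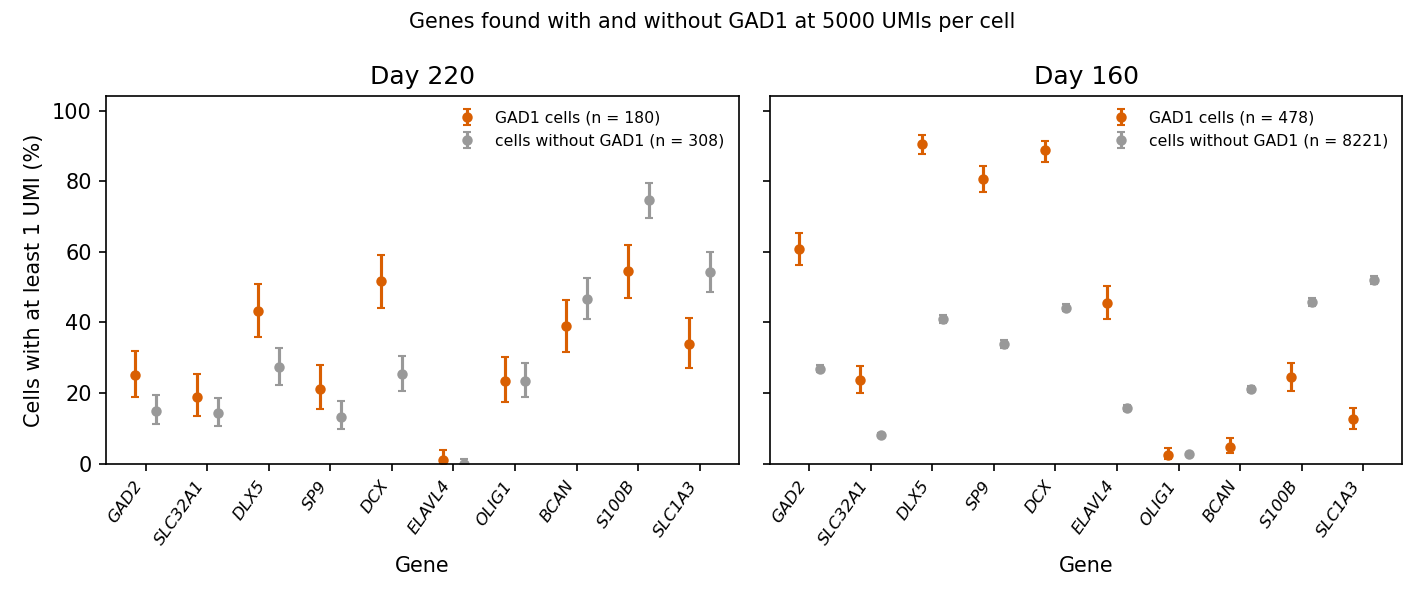
Share of thinned cells (%) with at least 1 UMI of each gene among GAD1 cells (orange) and cells without GAD1 (grey), with exact Clopper-Pearson intervals (95%), at day 220 (left) and day 160 (right). DLX5 was found in 43.3% of GAD1 cells at day 220 and in 90.6% at day 160, while OLIG1 at day 220 stood at 23.3% in GAD1 cells and 23.4% in cells without GAD1.

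The genes whose level ran most like each member across all 18 clusters were ranked by Pearson r of log2(CPM + 1) among 6114 genes that reached 50 CPM in a cluster. The clusters of a day share a library, so these values are a description. For GAD1 they were TCF12 (0.99), FOXN3 (0.97) and TRIM44 (0.97), and TCF12 gave 0.99 within the 7 day 220 clusters and 0.98 within the 11 day 160 clusters. TCF12, an E-protein transcription factor, spanned 306 to 945 CPM over day 220 clusters and 37.5 to 262 CPM over day 160 clusters. For GAD2 they were DLX6 (0.97), DLX5 (0.96) and TAC3 (0.95). SLC32A1 ran most like TP53I11 (0.95), and with GAD2 it gave 0.92, whereas GAD1 with GAD2 gave 0.43. Within a day, GAD1 with GAD2 gave 0.72 at day 220 and 0.93 at day 160. CALB2 ran most like TLE5 (0.90), SCGN like DYNC1I1 (0.87) and NPY like SP3 (0.89), and CALB2 with SCGN gave 0.84. SST ran most like ETFB (0.83), but this rests on day 160: within the 7 day 220 clusters, where SST had 1 UMI, it gave -0.19. CALB1 stayed under 50 CPM in every cluster and was not ranked.

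The rest of the GABA pathway was read from lists of 10 handling genes, 14 receptor genes, 24 interneuron transcription factors and 15 other subtype genes. Together 30 of the 63 genes reached 10 CPM in a library. Of these, 8 were at least 2-fold higher and 7 at least 2-fold lower at day 220, beside 23.0% and 5.09% of all genes counted. Their median log2 ratio was -0.06, beside 0.14 over all genes counted. Centred on intron length, 4 were higher and 7 lower; of all genes, 10.5% were then higher and 7.49% lower.

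Of the handling genes, 6 were counted, with a median log2 ratio of 0.86, or 0.23 when centred on intron length. With or without centring, 1 of the 6 was at least 2-fold higher. ABAT, which breaks GABA down, lay within 2-fold, at 145 CPM at day 220 and 83.5 CPM at day 160. Its log2 ratio was 0.79, or 0.03 centred.

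Of the receptor genes 5 were counted, and 4 were at least 2-fold higher at day 220, beside 23.0% of all genes counted. GPHN, gephyrin, the scaffold of inhibitory synapses, reached 300 CPM at day 220 (293 to 307), against 14.1 CPM at day 160 (13.4 to 14.8). The receptor subunit GABBR2 stood at 102 CPM at day 220 and 18.9 CPM at day 160, and GABRG3 at 21.3 CPM at day 220 and 4.26 CPM at day 160. After centring on intron length 1 of the 5 was past 2-fold, GPHN, beside 10.5% of all genes. The log2 ratio of GABBR2 was then -0.21, against 2.37 uncentred, and that of GABRG3 -0.50, against 2.08.

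Among the transcription factors 17 were counted, 3 higher and 7 lower, with a median log2 ratio of -0.76. Of all genes counted, 23.0% were higher and 5.09% lower. SOX6 had 626 CPM at day 220 and 67.8 CPM at day 160, but its log2 ratio of 3.19 became 0.60, under 2-fold, when centred on intron length. PROX1 had 72.2 CPM at day 220 and 16.4 CPM at day 160, a log2 ratio of 2.08, or 1.75 centred. After centring 2 factors were higher and 7 lower. The lower ones included the precursor factors DLX2 and SP9. DLX2 stood at 153 CPM at day 220, against 553 CPM at day 160, and SP9 at 35.0 CPM at day 220, against 120 CPM at day 160. LHX6, NKX2-1 and ISL1, factors of ventral forebrain neurons, had 0 UMIs in both libraries, which by a limit of 3 counts a library allows up to 0.118 CPM at day 220 and 0.0261 CPM at day 160. Of the other subtype genes, PVALB and CCK also had 0 UMIs in both, VIP had 0 UMIs at day 220 and 1 UMI at day 160, and the 2 genes counted, TAC3 and LAMP5, lay within 2-fold.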

How the data were processed

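Single-cell 3′ RNA libraries of 2 cultures (day 220 and day 160) were analysed from the deposited counts, which are raw UMI counts per gene and barcode as the authors deposited them. Per the file headers Cell Ranger 7.0.1 made them, and the submitters' processing notes name hg38 and Seurat 4. The sources used here do not say whether intronic reads were counted. UMI totals of kept cells were 25487554 at day 220 and 115158004 at day 160.

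Barcodes with at least 1000 genes and at most 15% mitochondrial UMIs were kept, and doublets found with Scrublet in scanpy 1.11.5 were left out. Summed counts were expressed as CPM with exact Poisson intervals (95%), ratios with exact conditional binomial intervals and shares with Clopper-Pearson intervals. The log2 ratios were taken of CPM + 1, with a minimum of 10 CPM in 1 library. Cells were thinned to 5000 UMIs once for shares. Each library was clustered alone (2000 variable genes without the 8 members, 30 components, 15 neighbours, Leiden resolution 0.5). Gene positions and intron lengths came from GENCODE 29, with ratios centred in 20 bins of intron length. With 1 library per day no test between days was possible, and none was run. Counting scripts were tested on simulated data.

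Named genes were the 8 members, list genes at least 2-fold different (up to 6 a list), genes of the marker lists where they describe GAD1 cells, and the 3 genes most like each member. ABAT and the genes at or near 0 UMIs were named after their values were seen. Some list genes are not reported here by name. The members and lists were chosen with earlier results of these data known. Alternatives were other cell filters, doublets kept, other thinning depths, clustering settings and lists.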

Additional observations from a re-analysis of the deposited data

Results flagged for a closer look

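Apart from the GAD1 and GAD2 counts of day 220 barcodes under the gene limit, nothing above uses barcodes that the cell filter left out. These barcodes also held UMIs of the 8 genes. Day 220 barcodes under the gene limit held 33 of them, and those over the mitochondrial limit held 553. At day 160 the numbers were 132 under the gene limit and 9101 over the mitochondrial limit. The 62 day 220 barcodes that had at least 1000 genes but were over the mitochondrial limit held GAD1 at 87.3 CPM and GAD2 at 13.0 CPM, against 111 and 76.8 CPM in kept day 220 cells.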

How the results depend on the processing

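The count of genes at least 2-fold higher at day 220 was 1 in place of 2 with doublets kept, with at least 500 genes and at most 20% mitochondrial UMIs, and with CPM taken without mitochondrial and ribosomal protein genes, since SLC32A1 lies close to 2-fold; with every cell weighted equally the 2 genes were GAD1 and CALB1. Over all alternatives the log2 ratio ranged from 3.20 to 3.51 for GAD1, 0.80 to 1.48 for SLC32A1 and -1.06 to -0.45 for GAD2. The share of day 220 cells with GAD1 was 18.3% when thinned to 2000 UMIs, 48.5% to 10000 UMIs, 66.0% not thinned and 17.4% with at least 2 GAD1 UMIs, and at day 160 it was 2.75%, 4.35%, 8.91% and 0.667%. GAD1 cells without core genes at day 220 were 69.9% at 2000 UMIs, 43.7% at 10000 UMIs, 14.3% not thinned, 0 by the broad list, 83.9% with at most 1 core UMI and 87.8% without STMN4 and INA. At day 160 they were 27.5% with doublets kept, 29.8% with at least 2000 genes and at most 10% mitochondrial UMIs, 50.6% at 2000 UMIs, 16.4% not thinned, 0 by the broad list, 47.9% with at most 1 core UMI and 41.4% without STMN4 and INA. In 20 further thinnings the day 220 values ran from 31.4% to 36.7% for the share with GAD1 and from 54.7% to 66.0% for those without core genes, and the day 160 values from 5.31% to 5.69% and from 22.8% to 27.6%. The thinning reported lies outside the first and the last of these ranges. Over the 4 lists, 5 genes were at least 2-fold higher at a minimum of 50 CPM and 4 when centred on intron length, against 8. The cluster of highest OLIG1 had GAD1 at 156 CPM under both other clusterings, whereas GAD1 in that of highest SPARCL1 was 35.2 CPM and GAD2 20.9 CPM at a resolution of 1.0, against 53.7 and 6.74 CPM. CALB2 in the day 160 cluster of highest DCX was 2113 and 2279 CPM, against 1140 CPM. Of 62 other recomputed values (log2 ratios of single genes and cluster levels), 27 stayed within the interval of the value reported, 35 moved and 0 called values changed sign; the causes of these moves were not tested. The further thinnings, the unthinned share and the list without STMN4 and INA were chosen after the data were seen. No paired analysis was possible because each day has 1 library. Depth limits the shares, since a cell without a UMI of a gene may still express it, and the 518 cells of day 220 set the width of its intervals.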
